A study of Mus musculus with 6 samples.

Results

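Basophils and mast cells are the granulated effector cells of IgE-mediated responses, and both develop in the bone marrow from myeloid progenitors that pass through or near the granulocyte-monocyte progenitor (GMP) stage. They store histamine and proteases in cytoplasmic granules and release them when antigen cross-links IgE on the high-affinity receptor FcεRI. GATA2 and the receptors for interleukin 3 and stem cell factor are known regulators of the lineage, and MITF is needed for mast cells. Levels of 10 genes of this lineage were followed here in sorted mouse GMP, taken by gene name from a table of 24205 genes. The genes were the granule proteases Mcpt8, Prss34, Gzmb and Cpa3, the histamine-synthesis enzyme gene Hdc, the FcεRI subunit genes Fcer1a and Ms4a2, the cytokine gene Il4, and the transcription factor genes Mitf and Ikzf2.

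The libraries came from bone marrow GMP of C57BL/6 mice after hindlimb ischemia (HI, 3 libraries), a surgical cut in blood flow to one leg, or after a sham operation (Sham, 3 libraries). The question was whether a distant ischemic injury changes the transcriptome of these progenitors. Nothing in the labels ties a library to its own animal or to a pool, so the spread behind each p-value is that of the libraries at hand and may be technical. No genotype change is named for either group, and age, sex and the interval between surgery and sorting are not stated in the sources.

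Expression was given in TPM (length-scaled transcript abundance), which scales reads by transcript length and by the library total, so that levels of different genes can be compared. The reads recovered from these values came to between 32755589 and 41624577 per HI library and between 32548023 and 37130483 per Sham library. HI was compared with Sham by limma-trend on log2(TPM + 1) over the 13787 genes that reached 1 TPM in 3 or more libraries. With Benjamini-Hochberg adjustment 0 of these genes passed 0.05, so percent called was 0, and 537 genes (3.89%) had an unadjusted p under 0.05. The authors' deposited table holds 12 genes with an adjusted p under 0.05, and none of the 10 is among them. Over the 13787 genes the median log2 fold change was -0.09, with 69.1% of genes below 0. With TPM rescaled by size factors (median of ratios) it was 0.01, and 46.8% of genes were below 0. A fit with the replicate number as a block called 69 genes. Of the 6 libraries left out in turn, HI replicate 1 changed the number of called genes most. Without it 33 genes passed the adjusted threshold, the median of all genes was -0.15 and 70.1% were below 0. HI replicate 1 differed from the Sham libraries by a chi-square of read counts, per gene, of 22.1 to 34.6. From HI replicates 2 and 3 it differed by 48.8 and 107.4. Sham replicate 1 was also nearer to HI replicate 1 (22.2) than to Sham replicates 2 and 3 (47.4 and 41.1), and stood at 61.95 from HI replicate 2. The statistic rises with the number of reads, of which HI replicate 3 had the most. The largest value, 118.2, was between HI replicate 3 and Sham replicate 1.

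All 10 lineage genes were detected and passed the filter, Il4 only just, and their levels fell into an abundant and a scarce set. In all 6 libraries Prss34 was the highest, followed by Mcpt8 and then Cpa3, and the ranges of these 3 genes did not touch. The TPM ranges of Fcer1a, Ms4a2 and Hdc overlapped, so their order was not the same in all libraries. A gap followed: the lowest Hdc value was 43.7 TPM and the highest Gzmb value 4.63 TPM. Gzmb, Mitf and Ikzf2 overlapped one another between 2.12 and 4.63 TPM, and Il4 lay below them at 1.47 TPM or less. Prss34 had a higher mean than 99.4% of listed genes, Mcpt8 than 98.5% and Cpa3 than 96.5%, whereas Il4 was above 44.0%. Together the 10 genes made up 0.142, 0.169 and 0.190% of all TPM in the HI libraries, against 0.202, 0.175 and 0.198% in the Sham libraries.

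**Figure D1:**
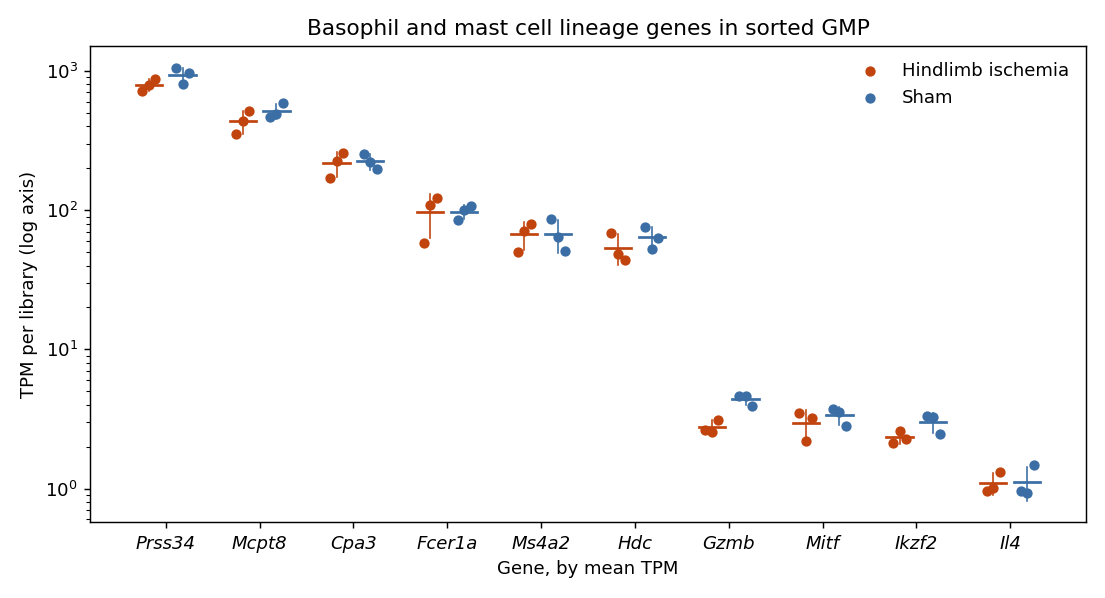
TPM per library on a log axis for the 10 lineage genes, ordered by mean, with HI left of Sham. Points are libraries, horizontal bars are means and vertical bars are 1 SD (n = 3 each). Prss34, Mcpt8 and Cpa3 are the most abundant, and Gzmb is the gene whose 2 groups do not overlap.

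The label of the lineage was checked against defining markers. The sorted cells carried the progenitor markers Mpo (8448 to 12040 TPM in HI and 9702 to 12820 TPM in Sham), Elane, Cd34 and Kit. Genes that mark mature mast cells in connective tissue were at or near 0. The tryptase gene Tpsb2 was at 0 in all 3 HI libraries and in Sham replicates 1 and 3, with 0.655 TPM in Sham replicate 2. The protease gene Mcpt4 was likewise at 0 in 5 libraries, with 0.110 TPM in Sham replicate 2, and the chymase gene Cma1 had at most 0.226 TPM in HI and 1.37 TPM in Sham. Of the basophil markers other than the 10 genes, the interleukin 3 receptor gene Il3ra had 28.7 to 34.2 TPM in HI and 31.0 to 40.2 TPM in Sham, and Cd200r3, a surface receptor of mature basophils, had 0.923 to 1.61 TPM in HI and 1.17 to 1.65 TPM in Sham. Itga2, the integrin α2 (CD49b) gene used to sort basophils, was below the filter at 0.223 to 0.558 TPM in HI and 0.185 to 0.576 TPM in Sham. In these bulk libraries a change in the number of cells that express a gene and a change in RNA per cell cannot be told apart.

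Upstream of 4 of the 6 abundant genes lie short sequences that match the recognition letters of GATA factors, and the windows of Mcpt8 and Hdc hold none. The 120 bases directly upstream of the RefSeq start site (GRCm38.p6) are printed 5′ to 3′ on the strand of the gene for Prss34, Cpa3, Fcer1a and Ms4a2, which hold such a match, and for Gzmb, which has none and whose groups did not overlap. Capitals mark GATAA or its reverse complement TTATC.
Prss34 (chr17:25298274-25298393, plus strand): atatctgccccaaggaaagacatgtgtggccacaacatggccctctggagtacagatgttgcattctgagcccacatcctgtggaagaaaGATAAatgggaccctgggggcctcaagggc
Cpa3 (chr3:20242182-20242301, minus strand): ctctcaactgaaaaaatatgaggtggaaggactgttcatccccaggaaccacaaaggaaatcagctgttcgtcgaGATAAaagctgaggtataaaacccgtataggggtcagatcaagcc
Fcer1a (chr1:173227230-173227349, minus strand): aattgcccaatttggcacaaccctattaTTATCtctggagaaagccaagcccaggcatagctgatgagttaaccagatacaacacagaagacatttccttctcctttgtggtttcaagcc
Ms4a2 (chr19:11623720-11623839, minus strand): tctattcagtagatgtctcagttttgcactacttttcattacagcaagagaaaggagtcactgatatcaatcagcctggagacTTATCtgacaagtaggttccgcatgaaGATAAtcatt
Gzmb (chr14:56262335-56262454, minus strand): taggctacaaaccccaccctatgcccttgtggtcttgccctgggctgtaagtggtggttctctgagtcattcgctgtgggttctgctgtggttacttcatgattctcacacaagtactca

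RefSeq windows of 250 bases before and 50 bases after a start were available for 9 of the 10 genes, 12 windows in all because Mitf and Il4 have several starts. GATAA, searched on both strands, was found in 7 of the 12 windows and in 6 of the 9 genes, and 25.4% of 32851 mouse windows of the same length hold it. The match began 45 bases before the start in Cpa3, 30 bases before it in Prss34 and 92 bases before it in Fcer1a. Ms4a2 held 3 matches, at 224, 37 and 10 bases before the start. CATGTG, an E-box of the kind that MITF binds, was found on either strand in 3 of the 12 windows, against 14.2% of all windows. Its 3 genes were Prss34, Fcer1a and Il4. CACGTG was found in 0 of the 12 windows, against 7.15% of all windows. GAGGAA, the letters of ETS factors, was found on either strand in 2 of the 12 windows, against 28.3% of all windows. TATAAA, searched on the gene strand only, was found in 2 of the 12 windows, against 8.32% of all windows. TGTGGT, the letters of RUNX factors, was found on either strand in 5 of the 12 windows, against 16.8% of all windows, and in 5 of the 9 genes. These were Mcpt8, Gzmb, Cpa3, Fcer1a and Mitf. In Gzmb it began 93 and 34 bases before the start. These matches are letters only and say nothing of binding in these cells.

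None of the granule protease genes passed the adjusted threshold, and Gzmb had the lowest estimate of the 10 genes. Gzmb (ENSMUSG00000015437, GRCm38/mm10 chromosome 14, 56258838 to 56262260) encodes granzyme B, a serine protease best known from cytotoxic lymphocytes and also made by basophils and mast cells. It had 2.65, 2.55 and 3.13 TPM in the HI libraries, against 4.63, 4.61 and 3.92 TPM in the Sham libraries. Every HI value was lower than every Sham value. The ratio of the means, HI over Sham, was 0.633, and the log2 fold change was -0.51 (SE 0.16, 95% interval -0.87 to -0.15). By limma-trend the unadjusted p was 0.00921 and the adjusted p 0.874. In the authors' deposited table, its sign turned to HI over Sham, Gzmb had a log2 fold change of -0.28 and an adjusted p of 0.913. The values rest on 64 to 120 reads per library, so counting error alone is 12.5% at the lowest.

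Groups that do not overlap were found for 8.33% of all genes tested, and for 1 of the 10 lineage genes, Gzmb. A single gene in 10 is near that background. An exact two-sided permutation test of Gzmb over the 20 labelings gave p = 0.1, the smallest value that 3 against 3 libraries allow. That value follows from the lack of overlap and adds nothing to it. Markers of the lymphoid cells in which Gzmb is best known were at or near 0. Cd3e had at most 0.0345 TPM in HI and 0.0758 TPM in Sham, and the perforin gene Prf1 had at most 0.143 TPM in HI and 0.0475 TPM in Sham. Nkg7 was the exception of the lymphoid list at 817 to 868 TPM in HI and 782 to 974 TPM in Sham.

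Mcpt8 (ENSMUSG00000022157, chromosome 14, 56082166 to 56085273) encodes mast cell protease 8, a serine protease that in mice marks basophils. It had 349.9, 439 and 513 TPM in the HI libraries, against 466, 487.5 and 584 TPM in the Sham libraries. HI replicates 1 and 2 lay below every Sham library, and HI replicate 3 lay within the Sham range. Its log2 fold change was -0.25 (SE 0.16, 95% interval -0.60 to 0.10; adjusted p 0.874 by limma-trend). Without HI replicate 1 the estimate was -0.10. Without HI replicate 3 it was -0.38 and the groups did not overlap, as for 12.5% of all genes.

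Prss34 (ENSMUSG00000056399, chromosome 17, 25298394 to 25300165) encodes mast cell protease 11, a tryptase-like enzyme of mouse basophils. It had 715, 795 and 873 TPM in HI, against 1042, 808 and 963 TPM in Sham. The groups overlapped because HI replicate 3 exceeded Sham replicate 2. Prss34 had a log2 fold change of -0.24 (SE 0.14, 95% interval -0.54 to 0.07; adjusted p 0.874 by limma-trend), and -0.16 without HI replicate 1. Without HI replicate 3 it was -0.31 and the groups did not overlap, as for 12.5% of all genes.

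Cpa3 (ENSMUSG00000001865, chromosome 3, 20215620 to 20242181) encodes carboxypeptidase A3, a granule enzyme shared by mast cells, basophils and their progenitors. It had 171, 224 and 259 TPM in HI and 254, 221 and 196 TPM in Sham, so the lowest and the highest library were both HI. Cpa3 had a log2 fold change of -0.05 (95% interval -0.42 to 0.32), and it was 0.11 without HI replicate 1. The interval leaves room for a level between 0.747 and 1.25 times that of Sham on the TPM + 1 scale. A microRNA gene lies inside Cpa3 on the same strand, at no more than 8.45 TPM.

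Hdc (ENSMUSG00000027360, chromosome 2, 126593667 to 126619299) encodes histidine decarboxylase, which makes histamine. It had 69.0, 48.3 and 43.7 TPM in HI, against 76.1, 53.0 and 63.2 TPM in Sham. The estimate was -0.26 (SE 0.19, 95% interval -0.69 to 0.16; adjusted p 0.874 by limma-trend). Here HI replicate 1 was the high library of its group, unlike for Mcpt8, Prss34 and Cpa3. Without it the estimate was -0.46 with an adjusted p of 0.205 by limma-trend, and the groups no longer overlapped.

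The FcεRI subunit genes did not differ detectably, and their intervals were the widest of the abundant genes. Fcer1a (ENSMUSG00000005339, chromosome 1, 173221284 to 173227214) encodes the α chain, which binds IgE. It had 58.3, 108.5 and 122 TPM in HI, against 85.3, 99.7 and 107.5 TPM in Sham. HI replicate 1 was below all Sham libraries, and HI replicates 2 and 3 were above them. The log2 fold change was -0.08 (SE 0.24, 95% interval -0.60 to 0.44) over all libraries, and 0.24 without HI replicate 1 (adjusted p 0.352 by limma-trend).

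Ms4a2 (ENSMUSG00000024680, chromosome 19, 11615523 to 11623719) encodes the β chain, which amplifies the receptor's signal. It had 49.7, 70.7 and 80.0 TPM in HI and 86.3, 64.2 and 50.8 TPM in Sham, an almost identical spread in both groups. Ms4a2 had a log2 fold change of 0.00 (SE 0.22, 95% interval -0.47 to 0.48), and 0.20 without HI replicate 1. Fcer1g, the gene of the shared γ chain and not among the 10, had 500.3, 490.1 and 499.3 TPM in HI, against 522, 543 and 598 TPM in Sham. Its groups did not overlap, as for 6.68% of all genes in that direction, with a log2 fold change of -0.16 and an adjusted p of 0.874 by limma-trend. The estimate was -0.04 with size factors and -0.08 with limma-voom. The γ chain also serves Fcγ receptors throughout the myeloid lineage.

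The cytokine gene Il4 (ENSMUSG00000000869, chromosome 11, 53602982 to 53618669), which basophils express on activation, was close to the filter's minimum. It had 0.958, 1.01 and 1.32 TPM in HI and 0.964, 0.932 and 1.47 TPM in Sham, from 20 to 40 reads per library. Counting error alone is 22.4% at 20 reads. It passed the filter through 2 HI libraries and 1 Sham library, and the log2 fold change was -0.01 (95% interval -0.42 to 0.39). At so low a level the 1 TPM added before the log shrinks both the estimate and its interval. The interval was -0.73 to 0.69 with a pseudocount of 0.1 TPM and -0.70 to 0.82 with limma-voom. A difference inside these wider intervals was not detectable at this depth and spread.

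The transcription factor genes were also low. Mitf (ENSMUSG00000035158, chromosome 6, 97807052 to 98021349), which encodes the basic helix-loop-helix factor required for mast cells, had 3.48, 2.21 and 3.23 TPM in HI, against 3.73, 3.54 and 2.81 TPM in Sham. The log2 fold change was -0.14 (95% interval -0.55 to 0.27), and -0.24 without HI replicate 1. A processed pseudogene within the gene on the other strand had up to 50.8 TPM, so reads of the pair may be mixed if strand was not used in counting. Ikzf2 (ENSMUSG00000025997, chromosome 1, 69531214 to 69687245), the gene of the zinc finger factor Helios, had 2.12, 2.60 and 2.29 TPM in HI, against 3.35, 3.27 and 2.45 TPM in Sham. Only HI replicate 2 and Sham replicate 3 kept the Ikzf2 groups from separating. Its log2 fold change was -0.27 (SE 0.17, 95% interval -0.64 to 0.11; adjusted p 0.874 by limma-trend).

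**Figure D2:**
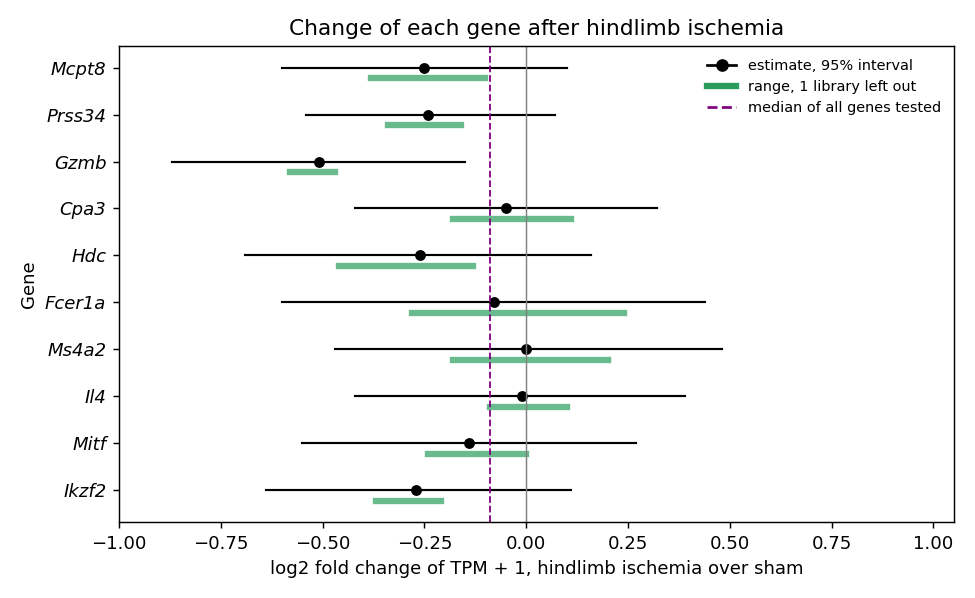
Log2 fold change of TPM + 1, HI over Sham, for each lineage gene, with the 95% interval of limma-trend (black) and the range of estimates with 1 library left out (green). The dashed line is the median of all genes tested, -0.09. The interval of Gzmb, -0.87 to -0.15, is the only one of the 10 that does not include 0, and leaving out a library moves Fcer1a, Cpa3, Ms4a2, Il4 and Mitf across 0.

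Across the 10 genes 0 passed the adjusted threshold, 1 was lower at an unadjusted p under 0.05 (background 2.95%) and 0 were higher. The median log2 fold change was -0.19, against -0.09 for all genes tested. Estimates were below 0 for 9 of the 10 genes, where 69.1% of all genes were below 0. With size factors the median of the 10 genes was -0.09 and 6 of 10 were below 0, against 0.01 and 46.8% for all genes. Without HI replicate 1 it was -0.13 with 6 of 10 below 0, against -0.15 and 70.1% for all genes. In that fit 2 of the 10 had an unadjusted p under 0.05, as did 2669 of the 13787 genes tested. In the authors' deposited table the adjusted p of the 10 genes ran from 0.913 to 0.989. With its sign turned to HI over Sham, Cpa3 (0.07), Fcer1a (0.06), Ms4a2 (0.09) and Il4 (0.02) were above 0 there. The others of the 10 genes were below 0.

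Much of the variation of the 10 genes lay between libraries of the same group. HI replicate 1 held the lowest value of 6 of the 10 genes and Sham replicate 1 the highest value of 6. The median deviation from the gene's own mean over the 6 libraries was -0.28 in HI replicate 1, while the median deviation of all genes tested in that library was 0.07, both on the log2(TPM + 1) scale. In Sham replicate 1 the median deviation was 0.23 for the 10 genes and nearly the same, 0.2, for all genes tested. For Mcpt8, Prss34, Cpa3, Fcer1a and Ms4a2, HI replicate 1 was the lowest and HI replicate 3 the highest of the HI libraries. Hdc ran the other way among them. The share of TPM from mitochondrially encoded genes was 3.76, 6.35 and 7.5% in HI replicates 1, 2 and 3, against 4.77, 5.51 and 4.40% in Sham replicates 1, 2 and 3, and its part in these differences was not tested.

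Without HI replicate 1 the groups did not overlap for 3 of the 10 genes, with Fcer1a higher and Gzmb and Hdc lower in HI. Over all genes tested that share was 43.9%. Gzmb is in this count by construction, since its groups did not overlap with all 6 libraries. With another library left out, the number of the 10 genes without overlap ran from 1 to 3, against 11.0 to 18.7% of all genes.

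**Figure D3:**
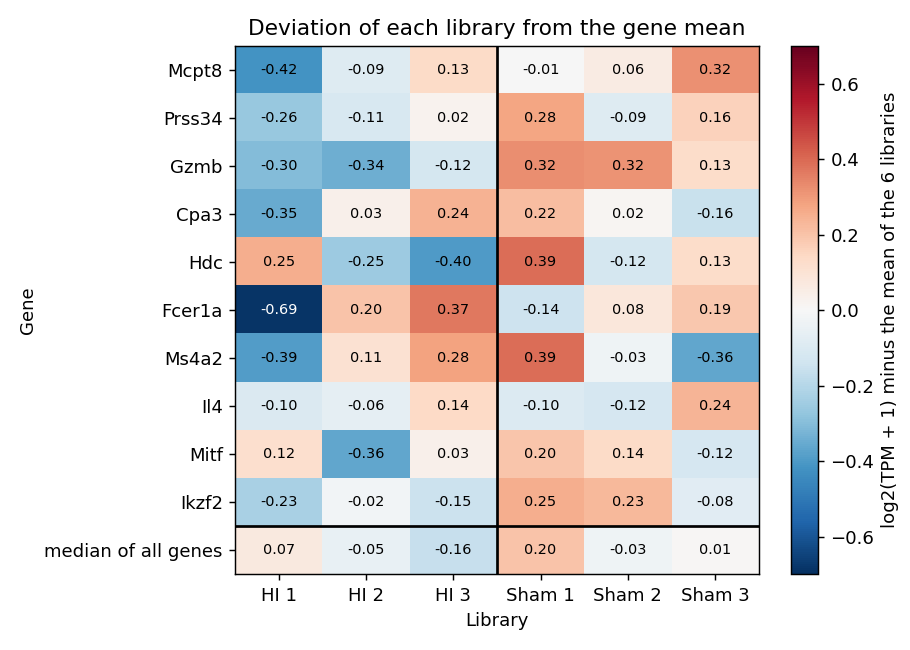
Deviation of log2(TPM + 1) in each library from the mean of the 6 libraries, for each lineage gene, with the median over all genes tested in the bottom row. HI libraries are left of Sham libraries. HI replicate 1 is low for Fcer1a (-0.69), Mcpt8 (-0.42) and Ms4a2 (-0.39) and high for Hdc (0.25), and the Sham libraries differ in opposite directions for Mcpt8 and Ms4a2.

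The level of Fcer1a over that of Ms4a2, the IgE-binding and the amplifying chain of the same receptor, was 1.17, 1.53 and 1.52 in HI, against 0.989, 1.55 and 2.12 in Sham. The lowest and the highest ratio both came from Sham libraries, a 2.14-fold range. Mcpt8 over Cpa3 was 2.05, 1.96 and 1.98 in HI, against 1.83, 2.21 and 2.98 in Sham. Mcpt8 over Prss34, both basophil proteases, had a narrower range, with 0.489, 0.552 and 0.588 in HI and 0.447, 0.604 and 0.606 in Sham. Over 5 such ratios the exact two-sided permutation p for HI against Sham was 0.3 to 0.9, each 0.9 after Benjamini-Hochberg adjustment, and 0.1 is the smallest raw value possible.

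The genes whose profile over the 6 libraries was most like that of Mcpt8 were Hist1h2bc, Spp1 and Ccdc109b, with a root mean square difference of 0.09, 0.10 and 0.12 in centred log2(TPM + 1) among 8197 protein-coding genes of at least 5 mean TPM. Prss34 was at rank 68 and Ms4a2 at rank 4671. For Cpa3 the nearest were Ccne2, Etaa1 and Zfp958 at 0.03, 0.04 and 0.04. Ms4a2 was at rank 151 and Mcpt8 at rank 1767. For neither gene were the 3 nearest profiles those of the other lineage genes.

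Related genes were described through 5 lists of the lineage's machinery, and 0 genes of any list passed the adjusted threshold of limma-trend. Of 20 genes of IgE receptor signalling, among them the kinase genes Lyn, Syk and Btk, 20 were tested, 0 had an unadjusted p under 0.05, and Fcer1g alone had groups that did not overlap. Their median log2 fold change was -0.21, and 20 of 20 estimates were below 0, against 69.1% of all genes. With size factors the median was -0.09 and 16 of 20 were below 0, against 46.8% of all genes, and without HI replicate 1 the median was -0.36. Of 14 cytokine receptor and STAT genes, 13 were tested with a median of -0.15, or -0.24 without HI replicate 1, and 0 had an unadjusted p under 0.05. Stat5b, which relays interleukin 3 signals, had the smallest unadjusted p of that list with a log2 fold change of -0.30, or -0.49 without HI replicate 1. Ifngr1, an interferon γ receptor gene, had 0.18, or 0.30 with size factors.

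Of 24 transcription factor genes 20 were tested, with a median of -0.22 over all 6 libraries, -0.12 with size factors and -0.34 without HI replicate 1. Among the 20, 4 had an unadjusted p under 0.05 (Gata1, Gata2, Zfpm1 and Egr1), all lower in HI (background 2.95%), and 6 had groups that did not overlap, all lower in HI (background 6.68%). These 6 were Gata1, Gata2, Tal1, Nfatc1, Tfeb and Tfec, of which Tfec had an estimate of 0.003 with size factors.

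Gata2, the zinc finger gene required for basophil and mast cell progenitors and also for stem cells, had 40.8, 41.6 and 33.3 TPM in HI, against 61.7, 50.2 and 50.1 TPM in Sham. Every HI value was below every Sham value. The log2 fold change was -0.48 (unadjusted p 0.010, adjusted p 0.874 by limma-trend). Gata1, which acts in mast cells, eosinophils and the erythroid lineage, had 6.94, 6.34 and 6.71 TPM in HI, against 10.7, 8.82 and 7.62 TPM in Sham, with a log2 fold change of -0.38 (adjusted p 0.874 by limma-trend).

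Erythroid and megakaryocyte markers are given beside these factors, and 0 of them passed the adjusted threshold of limma-trend. Of 11 tested markers 10 had estimates below 0, against 69.1% of all genes. Groups did not overlap for 6 of the 11, all lower in HI (background 6.68%), namely the erythroid genes Klf1, Car2, Hba-a1, Hba-a2, Hbb-bs and Hbb-bt. Groups overlapped for the platelet factor gene Pf4 (estimate 0.19) and for the megakaryocyte genes Itga2b (-0.35) and Gp9 (-0.21). They also overlapped for the erythroid genes Epor (-0.10) and Car1 (-0.27), so the overlap did not divide the 2 lineages cleanly. The globin genes are near-identical copies whose reads may be split. The list's summed level was 108 to 184 TPM in HI, against 244 to 287 TPM in Sham. The erythroid factor gene Klf1 had 2.58 to 4.29 TPM in HI and 5.40 to 6.28 TPM in Sham. The part of such cells in the Gata1 and Gata2 values was not tested.

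Of 25 granule, histamine and lipid mediator genes 11 were tested, with a median of -0.05, or 0.07 with size factors, and 0 with an unadjusted p under 0.05. Alox5, the 5-lipoxygenase gene of leukotriene synthesis, alone had groups that did not overlap (background 6.68%), with 14.66, 13.4 and 12.4 TPM in HI and 18.4, 15.9 and 14.67 TPM in Sham. HI replicate 1 and Sham replicate 3 all but met. Its log2 fold change was -0.25, or -0.15 with size factors. Srgn, the serglycin gene whose proteoglycan packs granule proteases, had 784, 1128 and 1442 TPM in HI and 936, 897 and 847 TPM in Sham. Slc18a2, the vesicular transporter gene that loads histamine into granules, had 19.6 to 26.3 TPM in HI and 19.8 to 30.4 TPM in Sham.

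Of 11 cytokine and chemokine genes 7 were tested, with a median of -0.34. Of these, 2 had an unadjusted p under 0.05, both lower in HI (background 2.95%). Groups did not overlap for 3 genes, Ccl3, Ccl4 and Osm, all lower in HI (background 6.68%). Ccl4, a chemokine gene, had 6.68, 6.15 and 6.73 TPM in HI, against 13.1, 9.07 and 10.3 TPM in Sham, and a log2 fold change of -0.64. The log2 fold change of Osm, the oncostatin M gene, was -0.64, and that of Ccl3 was -0.34 (adjusted p 0.874 by limma-trend for each of the 3).

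**Figure D4:**
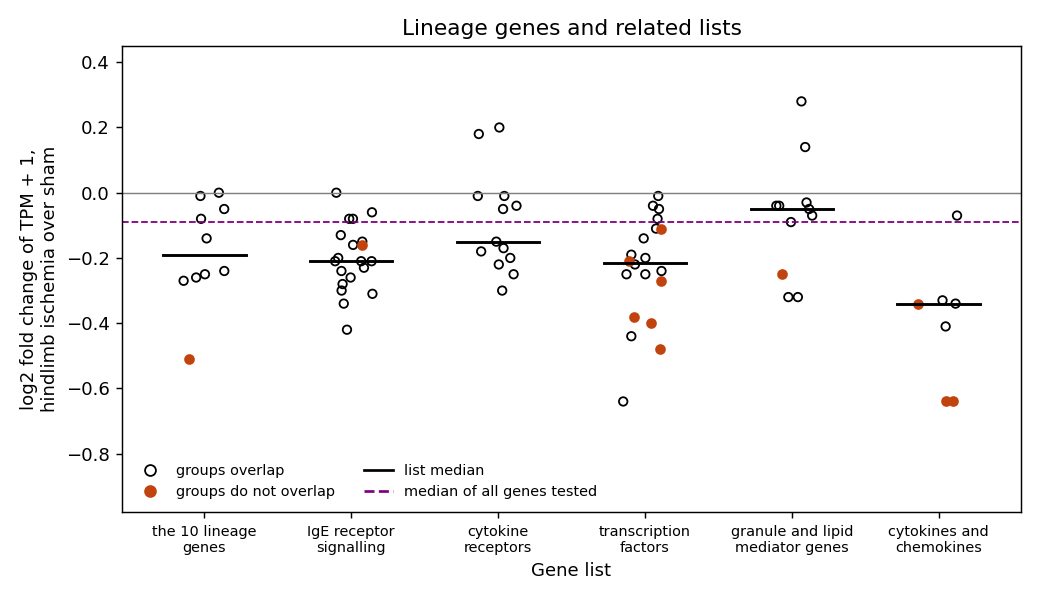
Log2 fold change of TPM + 1, HI over Sham, for the 10 lineage genes and the tested members of 5 related lists. Filled points are genes whose HI and Sham values do not overlap, bars are list medians and the dashed line is the median of all genes tested, -0.09. The separated genes all lie below 0, with 6 among the transcription factors and 3 among the cytokines and chemokines.

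Markers of other cells that the sort could hold were summed for comparison. The eosinophil list, an adjacent granulocyte lineage, had 2107 to 2449 TPM in HI and 1794 to 2464 TPM in Sham. The estimates of 6 of its 7 tested genes were above 0. Ear1, Ear2 and Ear6, members of a family of similar sequence, were higher in every HI than in every Sham library (background 1.65%). Ccr3 of the same list was below the filter and went the other way, with 0.0359 to 0.271 TPM in HI and 0.380 to 0.799 TPM in Sham. The GMP and azurophil granule list had 25280 to 30800 TPM in HI and 25900 to 31170 TPM in Sham, with 5 of 8 estimates below 0. The B cell list had 293 to 403 TPM in HI and 448 to 521 TPM in Sham, and Cd79a, Cd79b, Ighm and Ly6d of its 5 tested genes were lower in every HI than in every Sham library (background 6.68%). Macrophage markers had 17.6 to 21.0 TPM in HI and 19.96 to 26.2 TPM in Sham, with C1qb and Hmox1, of 4 tested, likewise lower in every HI library (background 6.68%). The mast cell list had 343 to 410 TPM in HI and 344 to 487 TPM in Sham. That level came from Cpa3 and Ms4a2, which are among the 10 genes, and from Kit, which is also on the GMP list. Its genes Tpsb2, Cma1 and Mcpt4 were at or near 0, so the sum is no separate measure of mast cells. The basophil list, which shares 5 genes with the 10 described here, had 1420 to 1914 TPM in HI and 1763 to 2038 TPM in Sham.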

How the data were processed

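Bulk RNA sequencing of sorted bone marrow GMP gave 3 HI and 3 Sham libraries. Per the file headers, the authors deposited TPM for each library and, for each gene, a log2 fold change with an adjusted p-value. Reads were placed on mm10 according to the submitters' processing notes. Aligner, counting tool and test are not stated in the sources. The deposited log2 fold change correlated with the log2 of HI over Sham at a Spearman rho of -0.96 across genes, so it is Sham over HI and its sign was turned. The 10 genes, the lists and the rule for named genes were chosen with earlier results of these data known. The rule named the 10 genes, the list members whose groups did not overlap (or the 2 with the smallest p), checks of the sorted population and the 3 nearest profiles of Mcpt8 and Cpa3. Il3ra, Cd200r3, Itga2, Itga2b, Gp9, Pf4, Epor, Car1, Prf1, Nkg7, Srgn, Slc18a2, Lyn, Syk, Btk, Zfpm1 and Egr1 were named after their values were seen. Genes of the lists that the table does not hold were not analysed here.

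TPM times the exon length of GENCODE M21 came out as whole reads for 14404 genes in each library (59.5%, tolerance 0.001 reads). For the other 9801 the shortest length giving whole reads in all 6 libraries (tolerance 1e-05) was taken, so their reads are known up to a common factor. No libraries were duplicates, with chi-square values per gene of 13.2 or more. Limma 3.58.1 in R 4.3.3 was run with a trend and robust variance, a pseudocount of 1 TPM and 4 residual degrees of freedom, and was tested on simulated data. Alternatives were quantile normalization, size factors, a fit with no trend, pseudocounts of 0.1 and 5, no filter or one on mean TPM (5 or more), a replicate block, each library left out and, chosen after seeing the data, limma-voom on recovered reads and overlap counts with a library left out. Intervals on read counts cover counting error only. Promoter windows are RefSeq's, on GRCm38.p6.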

Additional observations from a re-analysis of the deposited data

How the results depend on the processing

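Over 15 alternatives, 0 of 146 values of the 10 genes passed an adjusted p of 0.05, and 129 kept their direction. The 17 others, all at most 0.243 in size, were Cpa3 with voom (0.023), size factors (0.065), without HI replicate 1 (0.114) and without Sham replicate 1 (0.045). Fcer1a turned with size factors (0.034) and without HI replicate 1 (0.243), and ran from -0.284 to 0.243 with 1 library left out. Il4 turned with voom (0.06), size factors (0.048), quantile normalization (0.03), without HI replicate 1 (0.033), without HI replicate 2 (0.014) and without Sham replicate 3 (0.101), with -0.088 as its lowest value. Mitf turned without HI replicate 2 (0.004; lowest -0.237), and Ms4a2 without HI replicate 2 (-0.053), HI replicate 3 (-0.141), Sham replicate 2 (-0.014) and Sham replicate 3 (-0.18; highest 0.197). Among the other named genes Tfec turned with size factors (0.003). Gzmb kept its direction in all 14 alternatives that tested it, between -0.64 and -0.27, with adjusted p from 0.163 to 1. It, Mitf, Ikzf2 and Il4 are not tested at a mean of at least 5 TPM.

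Over all genes, limma without a trend called 1 gene past 0.05, and leaving out 1 library called 0 to 33 (33 without HI replicate 1). Genes at an unadjusted p under 0.05 numbered 915 with no filter and 340 at a mean of at least 5 TPM, where other numbers of genes are tested, and 236 (without HI replicate 2) to 2669 (without HI replicate 1) with 1 library left out. With the replicate number as a block, 69 genes passed 0.05 and 1895 had an unadjusted p under 0.05. Among them Ccl4 (adjusted p 0.0334) and Osm (0.0362) passed, and 0 of the 10 lineage genes did, with Gzmb at 0.163. The same-numbered libraries correlated at 0.39, 0.18 and 0.08 in their deviations from the group means. HI replicates 1 and 2 correlated best with the Sham library of their own number, and HI replicate 3 with Sham replicate 2 (0.38). Deviations from means of 3 libraries constrain one another, so these correlations cannot decide whether the libraries were paired. The cause of these differences was not tested. Il4 and Gzmb are limited by read depth.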
